A study of Mus musculus with 18 samples.

Results

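The genes that build microtubules and move along them were examined in mouse embryonic stem cells (mESCs) grown on gels of different stiffness. They comprised the protein-coding genes whose symbol is Tuba, Tubb, Tubg or Kif followed by a digit, together with Map1a, Map1b, Map2, Map4 and Mapt, and numbered 61 of the 21519 protein-coding genes of the count table. These were 17 tubulins (7 alpha, 8 beta and 2 gamma), 38 kinesins, 5 microtubule-associated proteins (MAPs) and Kif1bp, a kinesin-binding protein that is not itself a motor but has a matching symbol. A total of 55 passed the filter on low counts and were tested. The other 6, Kif12, Kif28, Kif2b, Kif6, Tuba8 and Tubg2, had between 8 and 63 reads each over all 18 libraries.

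The cells, E14 mESCs labelled 129m wt, spent 24 h on fibronectin-coated StemBond hydrogels in medium containing serum and LIF, a cytokine that holds mESCs undifferentiated. StemBond gels are polyacrylamide made with the co-factor AHA, which anchors extracellular matrix to the gel, so that its concentration sets how firmly the matrix is tethered. Soft gels were near 750 Pa and stiff gels near 160 kPa, and AHA was used at 16 mM, called low, at 48 mM, called mid, or at 80 mM, called high, which made 6 groups of 3 libraries. The labels give no replicate numbers, and libraries are numbered here within each group in accession order only to name them. All groups shared 1 cell line and 1 medium, and the labels did not say whether libraries of a group came from separate cultures, so p-values measure the spread between these libraries.

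Libraries held 5850621 to 9290261 gene counts, of which 68.4 to 72.7% lay in protein-coding genes. The 61 genes together took 32722 to 51108 counts, or 0.786 to 0.817% of the protein-coding counts. In replicate 1 of soft, high AHA, ERCC spike-in RNAs took 1.37% of counts against 0.607 to 0.725% in the other 17 libraries, and it was left out of the fit, so 8 soft and 9 stiff libraries were compared. All 8 markers of embryonic stem cells were above 1 CPM in every library. Of 12 markers of G2 and mitosis that are not kinesins, 0 were called between soft and stiff gels by edgeR (3 at an unadjusted p under 0.05, and 0 by DESeq2). Of all genes 8.59% were called, a share from which 0 of 12 cannot be told. The summed level of these markers overlapped (3253 to 3452 CPM on soft, 3282 to 3405 CPM on stiff).

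Microtubules are hollow polymers of alpha and beta tubulin heterodimers, and gamma tubulin forms the template from which they grow at centrosomes. Each tubulin family is encoded by several genes, called isotypes, whose products mix in the same polymer. Kinesins are motors that use ATP to walk along microtubules or to take their ends apart, some carrying vesicles, organelles or ciliary cargo in interphase and others building the mitotic spindle, while MAPs bind along the polymer and steady it. Stem cells of the early embryo divide fast and so express the spindle motors, whereas many isotypes, transport kinesins and MAPs are best known from neurons.

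Levels per length of exon covered a wide range and were led by the beta tubulins. Tubb5, the most widely expressed beta isotype, had 637 CPM per kb over the 17 libraries. CPM here are a gene's counts scaled to a common total over protein-coding genes. Next came Tubb4b (185 CPM per kb), an isotype of cilia and of many dividing cells, and Tubb6 (98.9 CPM per kb), a minor isotype of many tissues. The highest alpha tubulin was Tuba1a (67.3 CPM per kb) and gamma tubulin was represented by Tubg1 (41.2 CPM per kb). Among the kinesins, Kif20a, a motor of the central spindle, was highest (62.5 CPM per kb), followed by Kif5b, the general cargo motor of the kinesin-1 family (50.2 CPM per kb). Map1b (25.8 CPM per kb) and Map4 (21.3 CPM per kb) led the MAPs, whereas Map2 and Mapt, the dendritic and axonal MAPs of neurons, were at 1.40 and 2.65 CPM per kb. The means of 54 of the 61 genes were above 1 CPM.

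**Figure D1:**
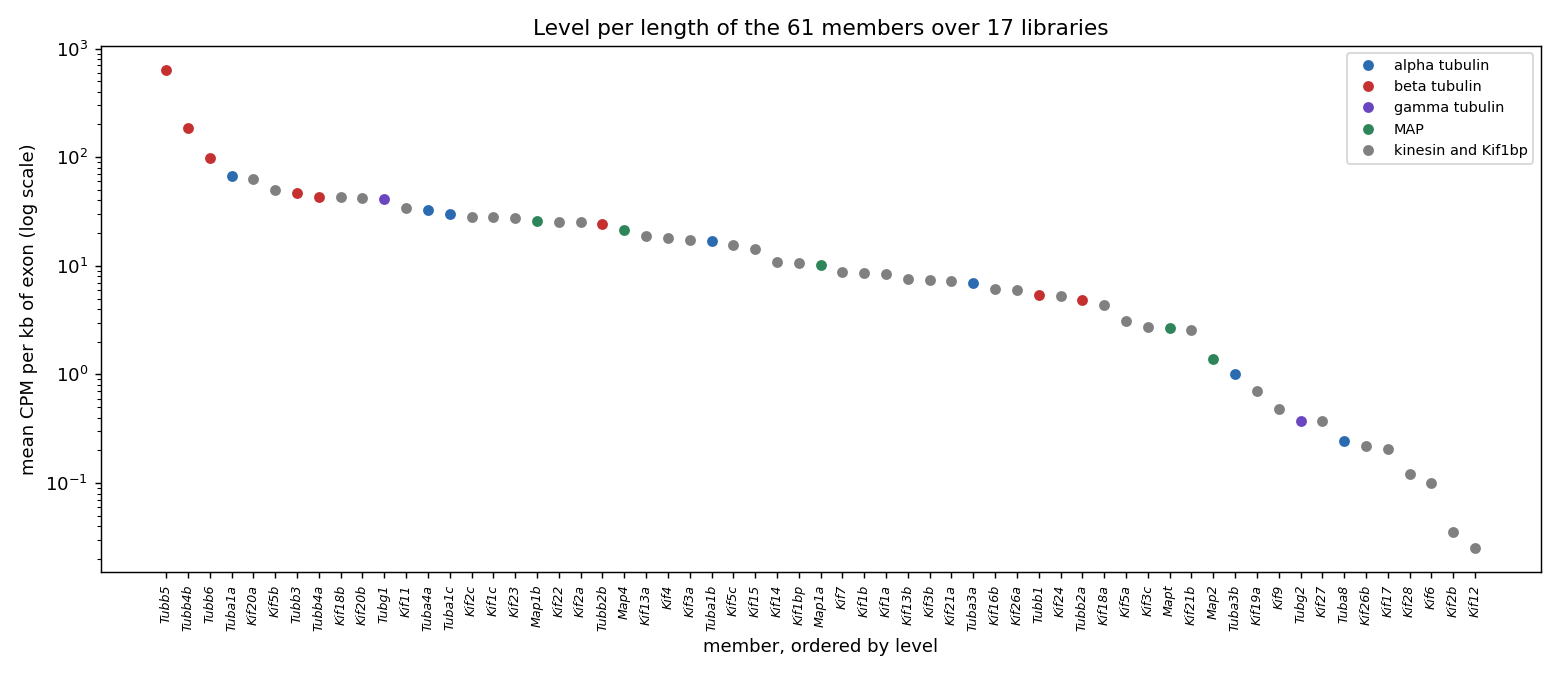
Mean level per kb of exon of each of the 61 genes over the 17 libraries, on a log scale, ordered from high to low and coloured by family. Tubb5, at 637 CPM per kb, stood above Tubb4b at 185 and Tubb6 at 98.9, and Kif12 was lowest.

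Reads of several tubulins could not be assigned with certainty. Of all 50-base windows of the exons, 72.9% in Tuba1a, 66.7% in Tuba1b and 52.7% in Tuba1c also occurred in the exons of another annotated gene, as did 37.8% in Tubb4b, 49.6% in Tubb2a and 36.9% in Tubb2b. Tubb6 and Tubb3 shared none and Tubb5 shared 0.09%. The split of counts among the Tuba1 isotypes is thus uncertain. So are the rank of Tuba1a among the alpha tubulins and the level of the alpha tubulins against that of the beta tubulins. Exons of genes on the opposite strand covered 40.7% of Kif3c, 37.3% of Tuba4a, 29.3% of Kif20a, 20.3% of Kif7, 19.2% of Kif2a and 15.1% of Kif4, and whether counting used strand was not stated.

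Stiffness was compared first. Averaged over the 3 AHA concentrations, 8 of the 55 tested genes (14.5%) were called between soft and stiff gels by edgeR's quasi-likelihood test, where 8.59% of all 13438 genes tested were called. Without replicate 3 of soft, high AHA, 4 were called, where 963 of 13855 genes were, a similar share. There were 5 lower on soft gels (Tubb6, Kif5c, Tuba1c, Tuba1a and Tubb4b), against a background of 4.82% called lower, and 3 higher (Kif26a, Kif3b and Kif20b), against 3.77% called higher. With ERCC scaling, which sets libraries to their spike-in counts, the split was 1 lower (Tubb6) and 4 higher (those 3 and Kif13b), and over all genes 193 were called lower and 736 higher, against 648 and 506 before. Of the 15 tubulins tested, 4 were called and all 4 were lower. Of the 34 kinesins tested, 3 were called higher and 1 lower, and of the 5 MAPs 0 were called (0 at an unadjusted p under 0.05 and 0 by DESeq2). The median log2 fold change was 0.016 over the 55 genes and 0.0011 over all genes.

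Tubb6 (chromosome 18, 67390717 to 67402749, GRCm38, plus strand) had the largest fold change of the 8 called genes and the smallest adjusted p. On soft gels it measured 198, 205 and 196 CPM at low AHA, 206, 202 and 205 CPM at mid AHA, and 213 and 236 CPM at high AHA. On stiff gels it measured 281, 296 and 257 CPM at low AHA, 289, 275 and 256 CPM at mid AHA, and 263, 252 and 264 CPM at high AHA. Every soft library lay below every stiff library. Tubb6 was the only tested gene of the 55 with this separation, in either direction, where 1.27% of all genes had it, 0.871% with soft below and 0.394% with soft above stiff. The library left out, at 198 CPM, also lay below every stiff library. The means were 208 ± 12.4 CPM (SD, n = 8) for soft and 270 ± 15.7 CPM (SD, n = 9) for stiff gels, and the log2 fold change was -0.37 ± 0.031 (SE, adjusted p = 3.31e-20), a difference of -22.6%. It stayed past the threshold in each of 8 other fits and 17 fits without 1 library, with values from -0.41 to -0.30.

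Tubb4b (chromosome 2, 25222160 to 25224702, minus strand) was the other beta tubulin called. It ranged from 349 to 398 CPM with a median of 370.5 on soft gels and from 378 to 427 CPM with a median of 397 on stiff gels. The groups overlapped, with 6 of the 8 soft libraries below every stiff library. The log2 fold change was -0.10 ± 0.027 (SE, adjusted p = 0.00546), and the call was lost without replicate 3 of soft, high AHA (-0.086, adjusted p = 0.0502). Tubb5 did not pass the test: it ranged from 2063 to 2207 CPM (median 2091) on soft and 2051 to 2199 CPM (median 2119) on stiff gels, and its log2 fold change was -0.017 with a 95% interval from -0.054 to 0.020. With ERCC scaling its value was above 0 (0.048).

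The makeup of the beta tubulin pool was described by each isotype's share of the summed level per kb. Tubb6 made up 8.33% ± 0.352 (SD, n = 8) of it on soft and 10.4% ± 0.594 (SD, n = 9) on stiff gels, ranging from 8.02 to 9.07% and from 9.72 to 11.5%, without overlap. The share of Tubb5 was 61.8% ± 0.354 on soft and 60.2% ± 0.760 on stiff gels, with overlap. Tubb3, known from neurons, held 4.75% ± 0.166 on soft and 4.27% ± 0.301 on stiff gels, also with overlap. Tubb3 itself was not called (0.10 ± 0.047, SE, adjusted p = 0.191), nor were Tubb2b (0.10 ± 0.059, adjusted p = 0.335) and Tubb4a (0.014 ± 0.045, adjusted p = 0.914). Tubb1, the isotype of platelets, and Tubb2a were low, with means of 7.64 and 7.86 CPM.

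Among the alpha tubulins, Tuba1a (chromosome 15, 98949837 to 98953703, minus strand) and Tuba1c (chromosome 15, 99029891 to 99038110, plus strand) were called. Tuba1a ranged from 103 to 125 CPM with a median of 114 on soft gels and from 111 to 139 CPM with a median of 130.1 on stiff gels. Tuba1c ranged from 57.7 to 72.8 CPM (median 62.2) on soft and 65.8 to 79.3 CPM (median 72.4) on stiff gels. In both genes soft and stiff libraries overlapped, with 2 and 5 of the 8 soft libraries below every stiff library. The log2 fold changes were -0.14 ± 0.040 (SE, adjusted p = 0.0154) for Tuba1a and -0.18 ± 0.052 (adjusted p = 0.0147) for Tuba1c. Tuba1a was no longer called without soft, low AHA, replicate 1 (-0.12, adjusted p = 0.0521) or replicate 2 of stiff, mid AHA (-0.12, adjusted p = 0.0653), and Tuba1c was not without soft, high AHA, replicate 3 (-0.13, adjusted p = 0.177) or replicate 2 of stiff, mid AHA (-0.16, adjusted p = 0.0534). Tuba4a, which carries no terminal tyrosine in its coding sequence, was not called (-0.086 ± 0.040, adjusted p = 0.195), and Tuba1b had -0.040 ± 0.077 (adjusted p = 0.841).

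Taken over all 3 AHA concentrations together, summed levels of the tubulin families overlapped between soft and stiff gels. Summed over the 7 alpha tubulins, soft gels gave 346 ± 8.80 CPM (SD, n = 3) at low, 334 ± 11.0 CPM (n = 3) at mid and 344 ± 11.5 CPM (n = 2) at high AHA, and stiff gels 366 ± 3.77, 362 ± 20.8 and 376 ± 13.3 CPM (n = 3 each). Over all concentrations the libraries overlapped, from 326 to 353 CPM on soft and 338 to 386 CPM on stiff gels. Within a concentration they overlapped at mid AHA only. They were apart at low AHA (336 to 353 CPM on soft, 362 to 370 CPM on stiff). At high AHA, with 2 soft libraries, they were apart too (336 to 352 CPM on soft, 361 to 386 CPM on stiff). The 8 beta tubulins summed to 2890 ± 2.88, 2949 ± 51.7 and 3014 ± 87.1 CPM on soft and to 3009 ± 11.3, 3091 ± 61.8 and 3059 ± 92.3 CPM on stiff gels in the same order. Over all concentrations, and at high AHA, these libraries overlapped. They were apart at low AHA (2888 to 2893 CPM on soft, 2997 to 3019 CPM on stiff) and at mid AHA (2895 to 2998 and 3033 to 3156 CPM). Separation of summed levels within a concentration was not tested. Of the 15 tubulins tested, 9 had a fold change below 0 and 6 above, which became 6 and 9 with ERCC scaling. That scaling moved the median of all genes by 0.065 and left 1 tubulin, Tubb6, called, with Tubb4b at -0.034 (adjusted p = 0.75), Tuba1a at -0.072 (adjusted p = 0.507) and Tuba1c at -0.11 (adjusted p = 0.35). In bulk RNA, fewer cells that express a gene and less of its RNA per cell cannot be told apart.

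The start regions of the called tubulins with a sequence at hand are given as a description. All 3 calls were lost with ERCC scaling. Most windows of Tuba1a and Tuba1c also occur in other genes, so their changes are not independent. RefSeq promoter sequences (GRCm38.p6, from 250 bases before to 50 after the start) were given for 49 of the 61 genes, Tubb6 not among them. In the sequences, which read 5′ to 3′ along the gene's strand, capitals mark CCAAT, the box bound by NF-Y, or ATTGG, the same letters on the opposite strand. Those of Tuba1a (chr15:98953452-98953751, minus strand), Tuba1c (chr15:99029641-99029940, plus strand) and Tubb4b (chr2:25224653-25224952, minus strand) are the following.
Tuba1a: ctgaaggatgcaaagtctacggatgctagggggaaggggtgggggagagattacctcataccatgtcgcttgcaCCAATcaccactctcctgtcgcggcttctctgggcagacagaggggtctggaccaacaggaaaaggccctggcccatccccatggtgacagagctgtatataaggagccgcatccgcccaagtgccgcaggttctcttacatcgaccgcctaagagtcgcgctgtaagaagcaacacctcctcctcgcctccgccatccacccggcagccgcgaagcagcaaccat
Tuba1c: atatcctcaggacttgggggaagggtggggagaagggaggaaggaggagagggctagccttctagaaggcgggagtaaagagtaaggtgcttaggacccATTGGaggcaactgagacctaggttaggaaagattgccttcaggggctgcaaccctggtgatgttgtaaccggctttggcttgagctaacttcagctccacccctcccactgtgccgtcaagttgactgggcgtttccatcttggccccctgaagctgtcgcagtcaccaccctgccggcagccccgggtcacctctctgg
Tubb4b: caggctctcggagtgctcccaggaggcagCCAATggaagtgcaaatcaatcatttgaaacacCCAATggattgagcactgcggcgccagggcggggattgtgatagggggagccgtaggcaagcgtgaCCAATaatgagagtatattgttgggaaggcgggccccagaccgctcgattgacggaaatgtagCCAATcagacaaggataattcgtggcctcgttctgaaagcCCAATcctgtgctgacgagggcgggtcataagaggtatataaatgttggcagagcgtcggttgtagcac
All 3 held the box, with 1 match each in Tuba1a and Tuba1c and 5 in Tubb4b, as did 8 of the 14 tubulin promoters at hand and 37.4% of all 32851 promoters of this length. A match is a description of the letters only. Tubb5, which was not called, held it too.

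Kinesins followed, taken by family. The families best known for work in mitosis (kinesin-5, kinesin-6, kinesin-8, kinesin-10, kinesin-12 and kinesin-13, with Kif4 and Kif14) were grouped as spindle families, a grouping that also takes in Kif19a and Kif24, known from cilia, and Kif12. In the kinesin-1 family of cargo motors, Kif5c (chromosome 2, 49619298 to 49774778, plus strand), a form enriched in neurons, fell on soft gels. It ranged from 85.8 to 116 CPM with a median of 104 on soft and from 107 to 133 CPM with a median of 120.0 on stiff gels, with 5 of the 8 soft values under the whole stiff range. The log2 fold change was -0.20 ± 0.045 (SE, adjusted p = 0.000606), and the call was kept in each of the 17 fits without 1 library but not with ERCC scaling (-0.13, adjusted p = 0.157). Its relatives did not pass the test: on soft gels Kif5b had 400.1 ± 16.5 CPM (SD, n = 8), on stiff gels 401 ± 11.3 CPM (SD, n = 9), and Kif5a, the other neuronal form, 22.4 ± 3.23 and 21.4 ± 2.36 CPM.

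Of the kinesins outside the spindle families, Kif26a and Kif3b rose on soft gels. Kif26a (chromosome 12, 112146208 to 112181747, plus strand), a divergent kinesin that binds microtubules without walking, ranged from 39.9 to 52.6 CPM (median 45.6) on soft and 34.3 to 43.2 CPM (median 36.2) on stiff gels. The groups overlapped, with 5 of the 8 soft libraries above every stiff library, and the library left out measured 36.3 CPM, within the stiff range. The log2 fold change was 0.29 ± 0.065 (SE, adjusted p = 0.000493), and the call was kept in each of the 8 other fits and the 17 fits without 1 library. Kif3b (chromosome 2, 153291413 to 153333390, plus strand), which pairs with Kif3a to carry cargo into cilia, ranged from 37.9 to 49.3 CPM (median 45.2) on soft and 32.9 to 47.3 CPM (median 40.2) on stiff gels, and 1 soft library lay above every stiff library. Its log2 fold change was 0.19 ± 0.066 (adjusted p = 0.0466). DESeq2 did not make this call (adjusted p = 0.0846). It was also lost with all annotated genes (adjusted p = 0.0556) and in 11 of the 17 fits without 1 library (adjusted p from 0.0537 to 0.12), namely without replicate 2 or 3 of soft, high AHA, replicate 1 or 3 of soft, low AHA, replicate 3 of soft, mid AHA, and replicate 1 or 3 of each stiff group. Kif3a, its partner, was not called (0.019 ± 0.054, adjusted p = 0.901).

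The start regions of the kinesins with the largest called changes in each direction are given for comparison. Capitals mark the GC box, GGGCGG or CCGCCC on the opposite strand, in Kif5c (chr2:49619036-49619335, plus strand) and Kif26a (chr12:112145958-112146257, plus strand).
Kif5c: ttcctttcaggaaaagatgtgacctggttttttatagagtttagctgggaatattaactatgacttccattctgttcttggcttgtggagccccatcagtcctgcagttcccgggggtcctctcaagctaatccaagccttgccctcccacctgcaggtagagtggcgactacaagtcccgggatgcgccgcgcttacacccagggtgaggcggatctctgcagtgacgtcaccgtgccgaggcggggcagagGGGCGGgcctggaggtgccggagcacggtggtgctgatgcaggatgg
Kif26a: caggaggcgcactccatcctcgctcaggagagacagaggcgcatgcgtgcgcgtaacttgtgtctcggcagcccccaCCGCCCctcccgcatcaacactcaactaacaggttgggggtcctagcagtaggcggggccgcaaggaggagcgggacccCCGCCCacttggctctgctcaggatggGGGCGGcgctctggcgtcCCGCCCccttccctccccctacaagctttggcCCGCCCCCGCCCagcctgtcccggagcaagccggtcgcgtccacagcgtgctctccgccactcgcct
Kif5c held 1 match and Kif26a 6, and 35.7% of all promoters and 13 of the 17 promoters of kinesins outside the spindle families held at least 1. CCAAT, by contrast, was found in neither, and in 6 of those 17. Matches of CCAAT and of the GC box shared a base in 108 promoters, Kif3a being the only one of the 49 genes with a promoter sequence among them.

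The 20 kinesins tested outside the spindle families comprised 16 with a fold change above 0 and 4 below, with a median of 0.055, of which 2 were called higher and 1 lower (3.77% and 4.82% of all genes). The split was 17 and 3 with a median of 0.12 with ERCC scaling, and 12 and 8 with a median of 0.025 when soft, high AHA lacked replicate 3 instead of replicate 1. Kif13b, a vesicle motor, had 0.12 ± 0.046 (SE, adjusted p = 0.0952) and was called with ERCC scaling. Kif1c, which carries vesicles and integrins, had -0.058 ± 0.033 (adjusted p = 0.317). Kif1a and Kif1b, motors of synaptic vesicle precursors in neurons, measured 79.6 ± 7.24 and 153 ± 6.36 CPM (SD, n = 8) for soft and 75.9 ± 4.78 and 153 ± 8.68 CPM (SD, n = 9) for stiff gels. Kif7, the ciliary kinesin of Hedgehog signalling, measured 39.9 ± 3.34 and 39.8 ± 4.76 CPM. Kif27 (0.50 ± 0.30), Kif9 (0.32 ± 0.29) and Kif17 (-0.30 ± 0.48), with means of 0.946 to 2.09 CPM, had wide errors and were not called.

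Of 14 kinesins of the spindle families tested, 10 had a fold change above 0 (14 with ERCC scaling) and 1 (7.14%) was called, where 8.59% of all genes were called and 3.77% called higher. It was Kif20b (chromosome 19, 34922361 to 34975745, plus strand), a kinesin of cytokinesis. It ranged from 288 to 317 CPM (median 303) on soft and 268 to 307 CPM (median 287) on stiff gels, with overlap, and its log2 fold change was 0.087 ± 0.029 (SE, adjusted p = 0.0354). By DESeq2 it was not called (adjusted p = 0.0604), nor when soft, high AHA lacked replicate 3 instead of replicate 1 (adjusted p = 0.0829), nor in 6 of the 17 fits without 1 library (adjusted p from 0.0553 to 0.15), namely without replicate 3 of soft, high AHA, replicate 2 of soft, low AHA, replicate 3 of soft, mid AHA, replicate 3 of stiff, high AHA, replicate 1 of stiff, low AHA or replicate 1 of stiff, mid AHA. Its family members Kif20a (-0.053 ± 0.030, adjusted p = 0.308) and Kif23, which bundles the central spindle (-0.037 ± 0.031, adjusted p = 0.559), were not called. Kif11, the motor that pushes spindle poles apart, measured 262 ± 8.46 CPM (SD, n = 8) on soft against 251 ± 13.3 CPM (SD, n = 9) on stiff gels (0.063 ± 0.030, adjusted p = 0.203). Kif2c, a depolymerase of kinetochores, had 0.073 ± 0.041 (adjusted p = 0.316), the chromosome-arm motor Kif22 had 0.060 ± 0.039 (adjusted p = 0.422), and Kif4, Kif15 and Kif18b had between -0.0014 and 0.035. Kif19a, at 2.88 CPM, had 0.43 ± 0.25 and was not called. Summed levels of the 16 kinesins of the spindle families were 2074 ± 35.6 CPM on soft gels against 2041 ± 33.3 CPM on stiff gels, with overlap.

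Start regions of the spindle families often held a further motif. TTTGAA, or TTCAAA on the opposite strand, the core of the CHR element known from genes of G2 and mitosis, was found in 9 of 14 promoters of the spindle families (Kif11, Kif14, Kif15, Kif18b, Kif20b, Kif22, Kif23, Kif2c and Kif4), in 2 of 17 other kinesin promoters (Kif26b and Kif27), and in 17.9% of all promoters. It shared a base with CCAAT in 47 of all promoters and in 0 of these genes.

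**Figure D2:**
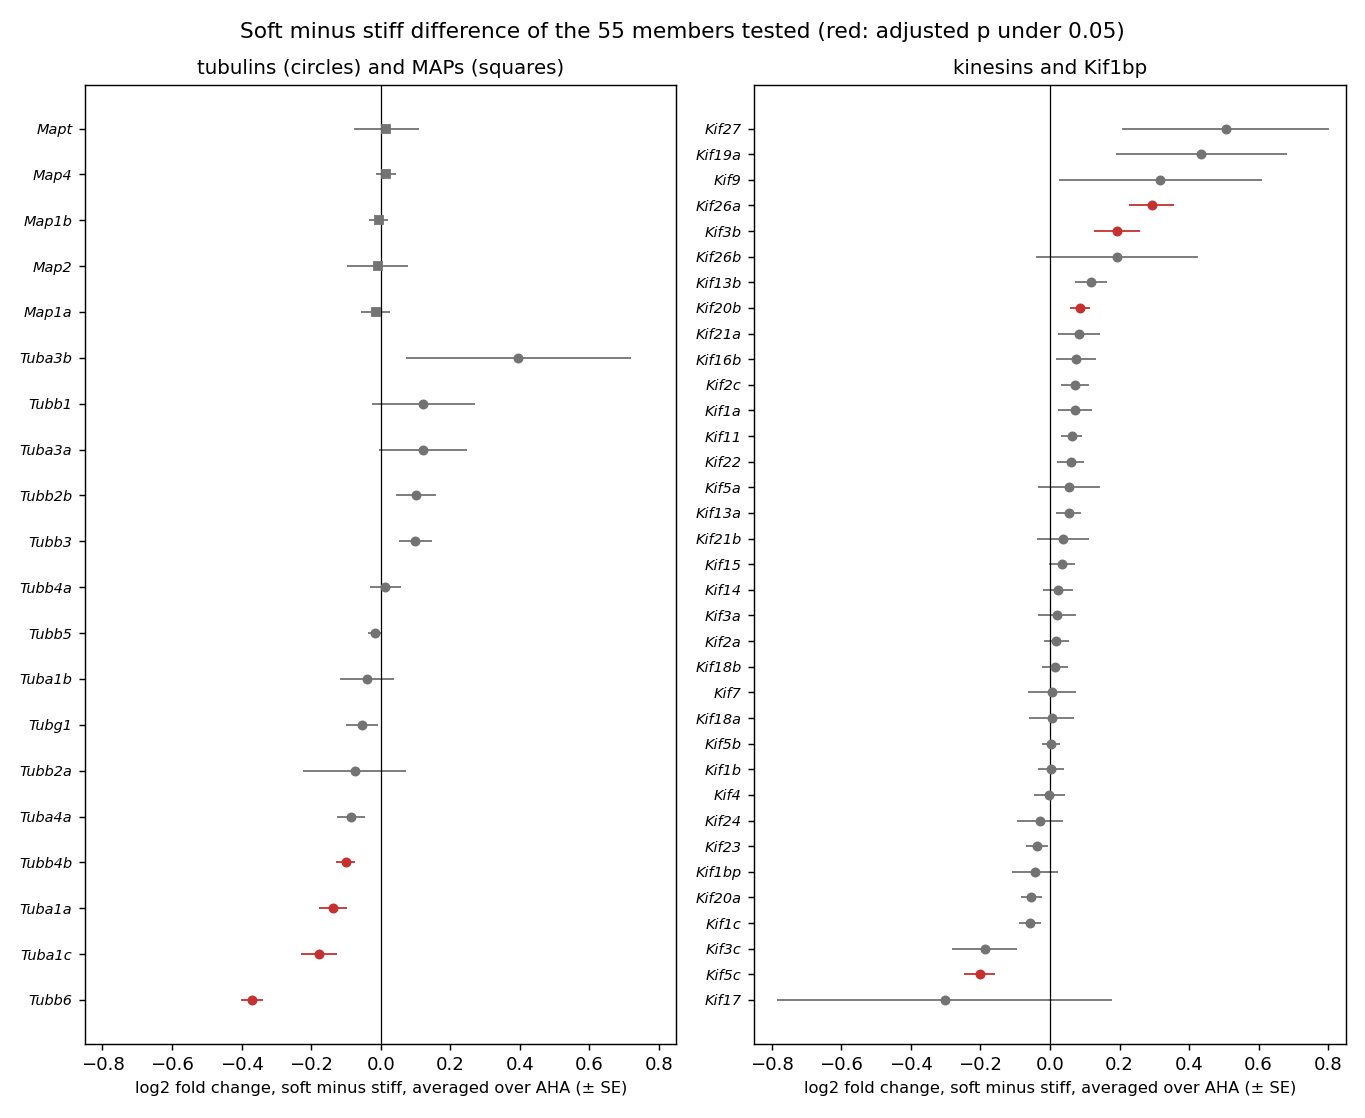
Log2 fold change, soft minus stiff averaged over AHA, with its SE, for the 55 genes tested, tubulins and MAPs on the left and kinesins with Kif1bp on the right. Called genes are red, 4 tubulins all to the left of 0, Kif5c also to the left, and Kif20b, Kif3b and Kif26a to the right.

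Each AHA concentration was then compared on its own. At low AHA, 3 of the 55 genes were called, all lower on soft gels (Tubb6, Kif5c and Map1b), against 3.04% of all genes, 2.19% lower and 0.848% higher. At mid AHA 4 were called, Tubb6, Kif5c and Tuba1c lower and Kif26a higher, against 2.86%, 1.85% lower and 1.01% higher. At high AHA 1 was called, Tubb6, lower on soft gels, against 0.841%, 0.432% lower and 0.409% higher. DESeq2 called 1, 2 and 0 of them.

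Tubb6 was the gene called at all 3 concentrations. Its log2 fold change was -0.48 ± 0.052 (SE, adjusted p = 6.71e-13) at low, -0.42 ± 0.052 (adjusted p = 2.17e-10) at mid and -0.22 ± 0.058 (adjusted p = 0.0380) at high AHA. Groups did not overlap at any of them. The high AHA call rested on 2 soft libraries and was lost with DESeq2 (adjusted p = 0.110), with ERCC scaling (-0.11, adjusted p = 0.689) and without replicate 2 of soft, high AHA (-0.15, adjusted p = 0.483), replicate 1 of stiff, high AHA (-0.21, adjusted p = 0.111) or replicate 3 of stiff, high AHA (-0.21, adjusted p = 0.148). When soft, high AHA lacked its replicate 3 rather than replicate 1 the value was -0.34 (adjusted p = 1.46e-05). A difference in size between concentrations did not pass the interaction test after adjustment (adjusted p = 0.399), a test that called 0 of the 55 genes (9 at an unadjusted p under 0.05, and 0 by DESeq2) and 0.0298% of all genes.

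Kif5c had -0.29 ± 0.076 (SE, adjusted p = 0.0115) at low, -0.28 ± 0.074 (adjusted p = 0.0151) at mid and -0.035 ± 0.082 (adjusted p = 0.941) at high AHA. Its soft libraries measured 89.1, 106 and 96.9 CPM at low, 85.8, 113 and 102 CPM at mid and 116 and 115 CPM at high AHA, and the library left out measured 109 CPM, whereas stiff libraries ranged from 107 to 133 CPM. The interaction of Kif5c was not past the threshold (adjusted p = 0.735). DESeq2 gave adjusted p-values of 0.0620 and 0.0796 at low and mid AHA. With ERCC scaling they were 0.147 and 0.394, the value at mid AHA being -0.18. The call at low AHA was also lost without replicate 1 (adjusted p = 0.173) or 3 (0.0557) of soft or replicate 1 (0.112) of stiff, low AHA, and that at mid AHA without replicate 1 of soft (-0.17, adjusted p = 0.315) or of stiff (-0.22, 0.182), mid AHA. Tuba1c had -0.34 ± 0.086 (adjusted p = 0.0102) at mid AHA against -0.014 ± 0.087 at low and -0.18 ± 0.095 at high AHA. At mid AHA its 3 soft libraries, at 58.8, 59.2 and 59.8 CPM, were below its 3 stiff libraries, at 69.1, 79.3 and 75.3 CPM. The call was lost without replicate 1 of soft (adjusted p = 0.0543) or replicate 2 of stiff (0.131), mid AHA, and with ERCC scaling (0.306). Kif26a had 0.29 ± 0.11 at low, 0.35 ± 0.11 (adjusted p = 0.0457) at mid and 0.24 ± 0.12 at high AHA, a call lost with DESeq2 (adjusted p = 0.0590), with all annotated genes (0.0507) and without replicate 1 (0.129) or 2 (0.199) of soft or replicate 2 (0.237) or 3 (0.147) of stiff, mid AHA.

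**Figure D3:**
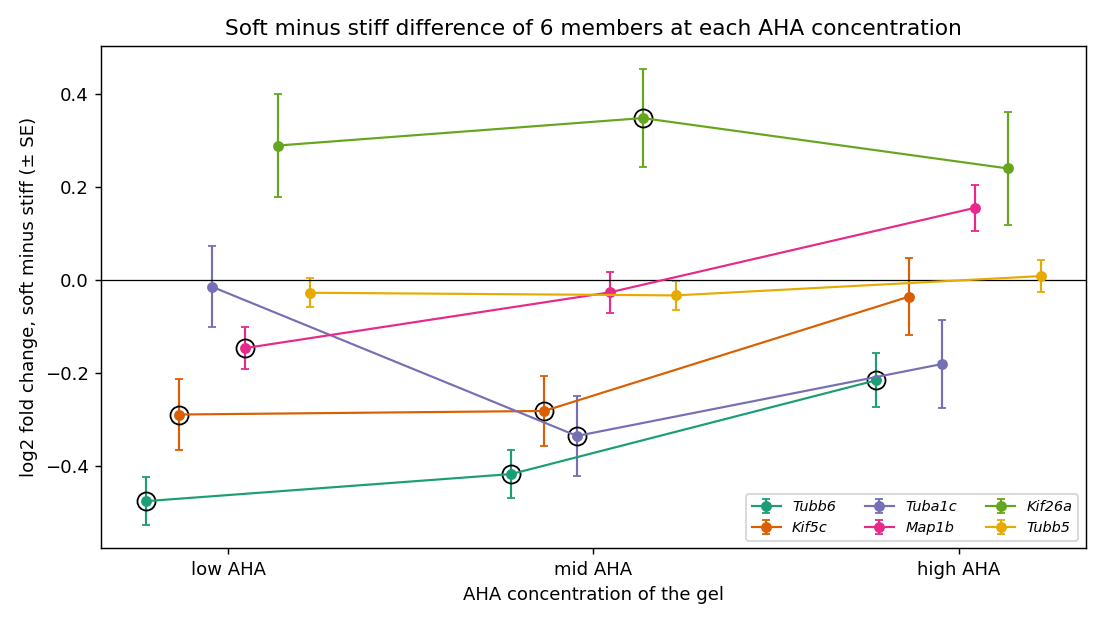
Log2 fold change, soft minus stiff, with its SE, at low, mid and high AHA for 6 genes, rings marking those called. Tubb6 lay below 0 throughout, from -0.48 to -0.22, Map1b went from -0.15 to 0.16, and Tubb5 stayed within 0.033 of 0.

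Map1b (chromosome 13, 99421446 to 99516540, minus strand), the most abundant MAP here and known for axon growth, was the gene of the 55 called between AHA concentrations. On stiff gels it measured 436, 448 and 439.6 CPM at low, 412, 391 and 440.1 CPM at mid and 390.5, 373 and 372 CPM at high AHA. On soft gels it measured 389, 419.8 and 386 CPM at low, 407, 387 and 427 CPM at mid and 403 and 442 CPM at high AHA. All high AHA libraries on stiff gels were below all low AHA libraries on stiff gels, while on soft gels they overlapped. High minus low AHA on stiff gels was -0.22 ± 0.045 (SE, adjusted p = 0.0342), and Map1b was the single gene of the 13438 called there (0.00744%), but not with DESeq2 (adjusted p = 0.278), all annotated genes (0.0723) or ERCC scaling (1.0). The call was also lost without replicate 2 (adjusted p = 0.262) or 3 (0.324) of stiff, high AHA or replicate 2 (0.307) or 3 (0.0819) of stiff, low AHA.

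Soft minus stiff, Map1b had values of opposite sign at low and high AHA, with -0.15 ± 0.045 (adjusted p = 0.0459) at low AHA, -0.026 ± 0.045 (adjusted p = 0.862) at mid and 0.16 ± 0.050 (adjusted p = 0.119) at high AHA. These values share the stiff libraries with the AHA comparison. Its interaction was not past the threshold (adjusted p = 0.126). The low AHA call was lost with DESeq2 (adjusted p = 0.133), with all genes of at least 2 counts (0.0671), with ERCC scaling (0.629), and in 8 of the 17 fits without 1 library (adjusted p from 0.0519 to 0.251), namely without any library of stiff, low AHA, replicate 1 or 3 of soft, low AHA, replicate 1 of soft, mid AHA or replicate 1 or 2 of stiff, mid AHA. Averaged over AHA, Map1b had -0.0056 ± 0.027 (adjusted p = 0.942). The other MAPs were not called in any comparison. Map4, the general MAP of dividing cells, measured 323 ± 16.5 CPM (SD, n = 8) with soft gels and 321 ± 11.1 CPM (SD, n = 9) with stiff gels, and Map1a 125 ± 11.0 and 125 ± 8.44 CPM. Mapt measured 24.1 ± 1.78 CPM (SD, n = 3) on soft, low AHA and 16.3 ± 1.41 CPM (SD, n = 2) on soft, high AHA, which was not past the threshold (-0.56 ± 0.17, adjusted p = 0.169).

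**Figure D4:**
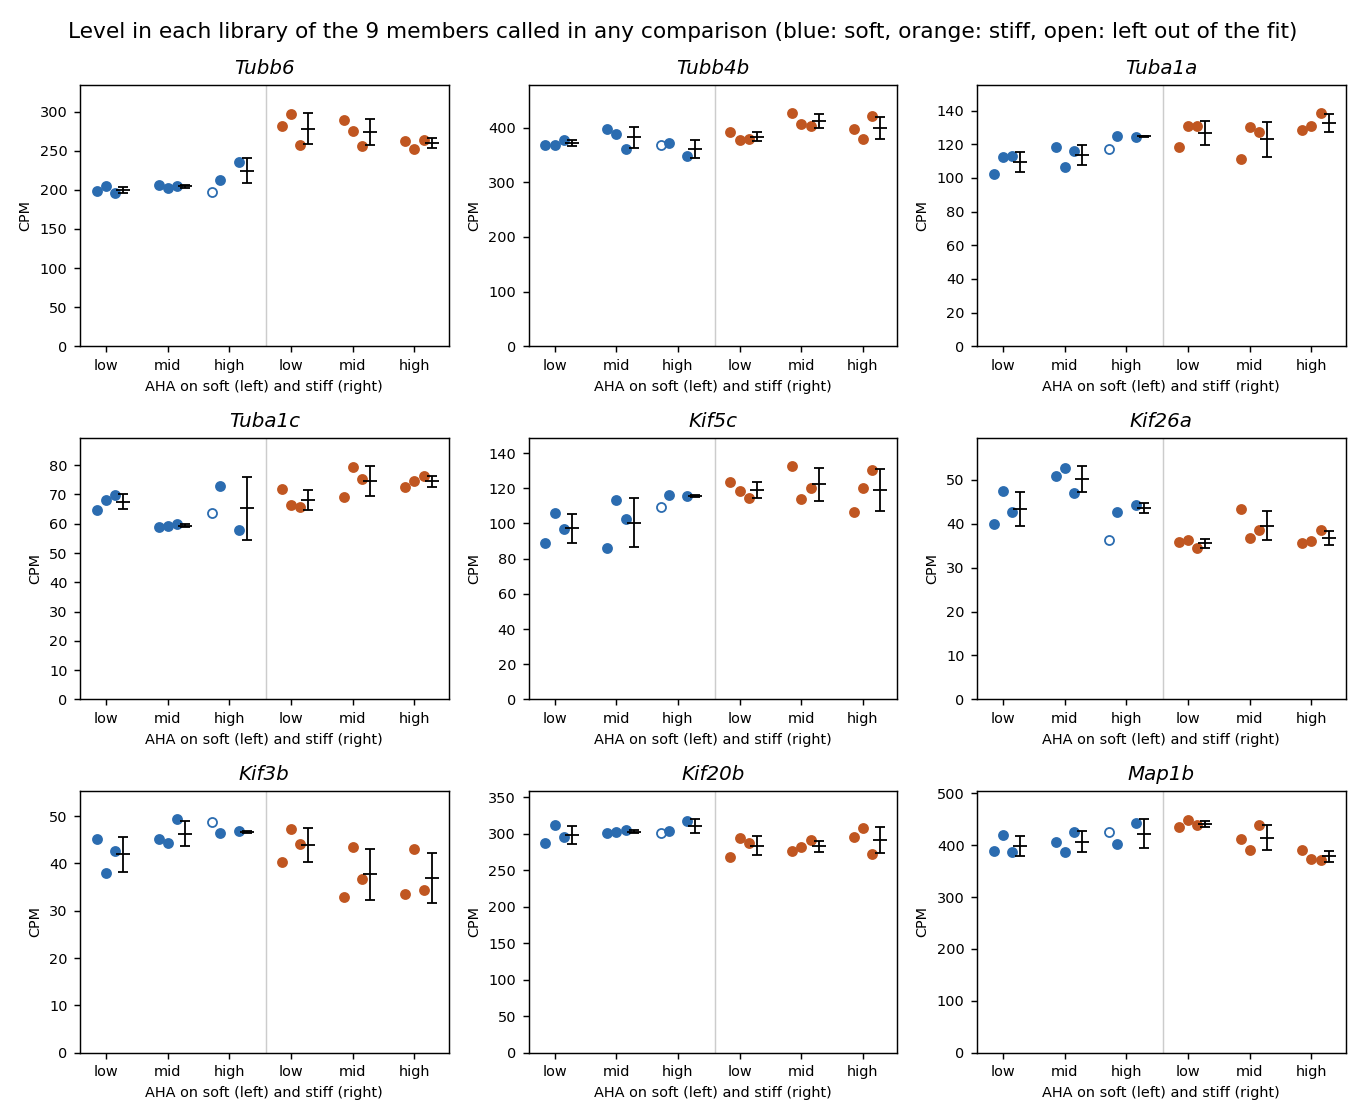
Level in CPM of the 9 genes called in any comparison, 1 point per library, by AHA concentration on soft (blue) and stiff (orange) gels, with the mean and SD of each group in black and the library left out as an open point. Tubb6 is the panel in which soft (196 to 236 CPM) and stiff (252 to 296 CPM) libraries were apart.

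Apart from Map1b, AHA gave no calls among these genes. Between AHA concentrations, 0 of the 55 were called on soft gels, where 0.253% (high against low), 0.067% (high against mid) and 0.0% (mid against low) of all genes were called (0.216% higher and 0.0372% lower in high against low), and 10, 3 and 7 of the 55 had an unadjusted p under 0.05. On stiff gels 0 were called in high against mid (5 at an unadjusted p under 0.05; 0.00744% of all genes called) and in mid against low AHA (3; 0.0%). High minus low AHA averaged over stiffness also gave 0 (9 at an unadjusted p under 0.05; 0.112% of all genes called, 0.0744% higher and 0.0372% lower). DESeq2 called 0 in each of these 6 comparisons.

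Other genes of the microtubule system were read from a separate list of 123, of which 118 were tested. Between soft and stiff gels 4 (3.39%) were called, 2 higher and 2 lower, where 8.59% of all genes were called, 3.77% higher and 4.82% lower, and the median log2 fold change was 0.0035. Map7d1, a MAP7 relative, was lower on soft (184 ± 8.22 CPM, SD, n = 8) than on stiff gels (211 ± 11.0 CPM, SD, n = 9) (-0.20 ± 0.033, SE, adjusted p = 2.17e-06), as was Stmn2, a stathmin that binds free tubulin, at 165 ± 8.59 against 184 ± 7.67 CPM (-0.15 ± 0.035, adjusted p = 0.000629). Mtcl1, a microtubule crosslinker, was higher on soft gels, at 383 ± 13.2 against 353 ± 14.6 CPM (0.12 ± 0.027, adjusted p = 0.000839), as was Hdac6, a tubulin deacetylase, at 149 ± 6.90 against 137 ± 7.30 CPM (0.13 ± 0.038, adjusted p = 0.0154). Calls were 0 of 20 among dynein and dynactin genes and 0 of 7 among tubulin folding cofactors (0 at an unadjusted p under 0.05 in both), and 0 of 15 among plus-end binding proteins and polymerases (3 at an unadjusted p under 0.05), and DESeq2 called 0 in each of these classes.

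Some marker levels moved with stiffness. Of all genes 8.59% were called, 3.77% higher and 4.82% lower on soft gels. Of the 8 embryonic stem cell markers 6 were called higher and 1 lower on soft gels, and their sum was 2674 to 2864 CPM on soft and 2475 to 2589 CPM on stiff gels. The 5 fibroblast markers summed to 114 to 195 CPM on soft and 164 to 236 CPM on stiff gels, with Col1a1 at 109 ± 24.6 CPM (SD, n = 8) and 155 ± 20.1 CPM (SD, n = 9), called lower on soft gels (-0.49, adjusted p = 0.00282). Of the 4 tested it was the only 1 called, Col1a2 (-0.13, adjusted p = 0.479), Col3a1 (-0.0020, adjusted p = 0.995) and Thy1 (-0.22, adjusted p = 0.63) not being past the threshold, while Dcn was at 0 in 9 of the 17 libraries. The 10 neural markers, for cells that would bring neuronal tubulins and MAPs, summed to 53.0 to 66.4 CPM on soft and 47.4 to 61 CPM on stiff gels. Of the 9 tested 0 were called (2 at an unadjusted p under 0.05, and 0 by DESeq2), which in so few genes cannot be told from the 8.59% of all genes. Markers of primitive endoderm (32.1 to 44.5 CPM on soft, 32.5 to 41.2 CPM on stiff) and of mesendoderm (18.5 to 28.3 and 16.0 to 32.0 CPM) overlapped too. The part of these markers' cells in the tubulin and kinesin results was not tested.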

How the data were processed

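Total RNA of mESCs was sequenced from a pico-input mammalian kit. Per the labels and the study's methods, the authors trimmed reads with Trim Galore 0.4.4, aligned them to mm10 with GSNAP and counted them per gene with HTSeq, and the deposited table holds these raw counts, without normalization. The strand setting is not given in the sources used here. Unassigned reads (61.5 to 64.0% of a column), ERCC and SIRV rows stayed out of library sizes and tests. Counts of 5850621 to 9290261 per library set the precision.

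Protein-coding genes passing filterByExpr (minimum 10) were fitted with edgeR 4.0.16 (limma 3.58.1, R 4.3.3; TMM scaling, 1 coefficient for each of 6 groups, robust quasi-likelihood), over 17 libraries. The biological coefficient of variation was 5.349%. P-values were adjusted (Benjamini-Hochberg) over 13438 genes in each of 12 comparisons, and an adjusted p under 0.05 was a call. Scripts were tested on simulated data. Replicate 1 of soft, high AHA was left out for its ERCC share, as the study set such libraries aside. Alternatives were DESeq2 1.42.0, RLE or ERCC scaling, all genes of at least 2 counts, all annotated genes, all 18 libraries, each library left out in turn and, added after seeing the data, replicate 2 or 3 of soft, high AHA dropped instead. Shared 50-base windows and opposite exons came from the GENCODE M21 annotation (GRCm38). The genes and lists were chosen with earlier results of these data known. Named genes were those called in any comparison, the highest per kb in each family and the called genes of the other microtubule list. Further genes were named as relatives of these after their values were seen.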

Additional observations from a re-analysis of the deposited data

Results flagged for a closer look

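Of 44 groups of soft or stiff libraries tested for an isolated extreme value, 4 had one, where chance gives about 1 in 20 if a group is uniform. Each group pooled 3 AHA concentrations, so an extreme library and AHA cannot always be told apart. Replicate 3 of soft, high AHA was the highest soft library for Tubb6 (236 CPM, next 213 in the other kept library at high AHA) and for Tubb5 (2207 CPM, next 2125). Replicate 1 of stiff, mid AHA was the highest stiff library for Kif26a (43.2 CPM, next 38.5), and replicate 3 of stiff, high AHA for Kif4 (117 CPM, next 99.7).

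In 5 genes the soft and stiff libraries were apart in opposite directions at a pair of AHA concentrations, and no interaction over the 3 concentrations passed the threshold after adjustment. The share of all genes that meet this rule was not counted. With 2 or 3 libraries to a group, some such separations arise without any difference, so the count is not a result about these genes. Map1b had a log2 fold change of -0.15 at low and 0.16 at high AHA (interaction adjusted p = 0.126), and Mapt 0.42 and -0.31 (adjusted p = 0.499). Kif24 had 0.097 at low and -0.16 at high AHA (adjusted p = 0.924). At high AHA these rest on 2 soft libraries, and the soft library left out lay inside the stiff range for Mapt (20.2 CPM, stiff 17.8 to 22.7 CPM) and Kif24 (41.3 CPM, stiff 38.1 to 49.9 CPM). Kif23 had 0.072 at low and -0.15 at mid AHA (adjusted p = 0.638). Tuba3b, with few reads, had -0.58 at mid and 1.30 at high AHA (adjusted p = 0.769).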

How the results depend on the processing

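Between soft and stiff gels averaged over AHA, ERCC scaling gave 5 calls in place of 8, of which 4 were shared (Tubb6, Kif26a, Kif3b and Kif20b) and Kif13b was gained. Over all 13438 genes it called 929 in place of 1154. Leaving out 1 library gave 4 to 9. The 4 came without replicate 3 of soft, high AHA, where 963 of 13855 genes were called, a similar share. For the other comparisons below, all-gene counts under each setting are not given, so changes particular to these genes cannot be told from general ones. At low AHA the 3 calls became 1 with DESeq2 or ERCC scaling and 1 to 3 without a library. The 4 at mid AHA became 2 with either and 1 to 4 without a library, and the 1 at high AHA 0 with either, 4 with all 18 libraries or with replicate 2 of soft, high AHA dropped instead, 2 with replicate 3 dropped instead, and 0 to 1 without a library. The call on stiff gels, high against low AHA, became 0 with DESeq2, ERCC scaling or all annotated genes, and 0 to 1 without a library. With replicate 2 dropped instead, 1 gene was called in high against low AHA on soft gels and 1 in the interaction. Without 1 library, 0 to 1 were called in the interaction and in high against low AHA averaged over stiffness.

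Of the recomputed fold changes of the 22 genes named by rule (averaged over AHA, and in each comparison that called them), signs turned only in the difference between soft and stiff gels averaged over AHA, and there only in genes not called in that comparison. With ERCC scaling Map1b had 0.058, Tubb5 0.048, Tubg1 0.0100, Kif1c 0.0086, Kif4 0.064 and Kif20a 0.011. Kif4 had 0.00045 with DESeq2, 0.00036 with RLE scaling and 0.0032 with all genes of at least 2 counts. Kif5b had -0.0062 with all 18 libraries, and -0.015 or -0.0097 with replicate 2 or 3 dropped instead, where Map1b had 0.0094 for replicate 2. Without 1 library, Map1b ranged from -0.028 to 0.013, Kif5b from -0.0074 to 0.016, Kif4 from -0.020 to 0.031, Kif3a from -0.020 to 0.055 and Kif18b from -0.0011 to 0.039. The cause of these changes was not tested. No paired analysis was possible because the labels give no replicate numbers.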
